A study of Mus musculus with 12 samples.

Results

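The class I histone deacetylases are Hdac1, Hdac2, Hdac3 and Hdac8, the class of enzymes in which MS275 (entinostat) has its main targets. The 4 genes were taken by name from the 44345 gene rows of the RNA count files, and all 4 were among the 16819 genes with enough reads to test. The tissue was whole L4-L6 dorsal root ganglia from C57BL/6 mice aged 6 to 8 weeks, collected 24 h after a dorsal column axotomy of the spinal cord. Mice were given MS275 intraperitoneally at 12 mg/kg, or its vehicle (Tween80, PEG300 and DMSO), at the time of injury and once more 2 h ahead of sacrifice. Both groups were injured, so the comparison is of drug against vehicle after injury. Each of the 3 RNA libraries per group pooled the ganglia of 2 mice, and ATAC-seq, which marks DNA open to a transposase, used 1 mouse for each of 3 samples per group, deposited as 1 combined list per treatment.

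Histone deacetylases remove acetyl groups from lysines of histones and other proteins, and class I enzymes are the main nuclear ones. Hdac1 and Hdac2 are close relatives that act as a pair inside the NuRD, SIN3, CoREST, MIER and MiDAC complexes. Hdac3 works in the NCoR complex and depends on it for activity, while Hdac8 belongs to no such complex and is known for deacetylating the cohesin subunit Smc3. The drug blocks the catalytic pocket of the enzymes it inhibits, so RNA levels of these genes show supply and not enzyme activity. Benzamides such as MS275 act mainly on Hdac1, Hdac2 and Hdac3 and far less on Hdac8.

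The RNA libraries held 34992533 to 60370523 reads assigned to genes, which gave 3961 to 6756 reads for Hdac2, 2795 to 4433 for Hdac3, 938 to 1586 for Hdac1 and 310 to 506 for Hdac8. Counting error alone was at most 1.59% for Hdac2 and at most 5.68% for Hdac8. Sensory neuron markers were abundant, as the labelled tissue calls for, with a summed level of 11800 to 12300 in vehicle and 11800 to 13300 with MS275, in counts scaled to library size (counts-per-million, CPM) over 10 genes, none at 0 and 2 called higher. Of 6 satellite glia markers 2 were higher and 2 lower (1610 to 1630 CPM summed in vehicle, 1690 to 1770 CPM with MS275, none at 0), and of 5 adipocyte markers 1 was higher (3.94 to 4.69 and 5.39 to 16.2 CPM, none at 0). The sums for 6 neutrophil markers were 37.2 to 62.7 CPM in vehicle and 40.9 to 238 CPM with MS275, with 0 called in edgeR and none at 0. All 9 skeletal muscle markers were higher with MS275, at a summed 6.11 to 56 CPM in vehicle and 90.2 to 642 CPM with MS275, the highest in MS275 replicate 1, none at 0. Of 6 endothelial markers 4 were higher (82.2 to 91.3 CPM summed in vehicle, 100 to 124 CPM with MS275, none at 0). In whole ganglia, a change in the number of cells of a type and a change in RNA per cell cannot be told apart, whether up or down.

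Hdac8 was the only member called, just inside the threshold, and the call was lost whenever a library was left out. It rose by 23.1% with MS275, while Hdac1, Hdac2 and Hdac3 did not pass the test and had point estimates of 1.55%, 3.00% and 1.53%. One of the 4 members was called, against 11.0% of all genes tested, 5.10% higher and 5.89% lower, so with 4 genes the count itself says little.

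Vehicle replicates 1, 2 and 3 held Hdac8 at 7.11, 7.13 and 7.92 CPM, and MS275 replicates 1, 2 and 3 held it at 9.05, 9.21 and 8.98 CPM. Every MS275 library was above every vehicle library, and the MS275 libraries lay closer together than the vehicle libraries. The MS275 spread was 1.3% of the mean, below the counting error of up to 5.68%, so nothing is read from that closeness. The group means were 7.39 ± 0.465 and 9.08 ± 0.118 CPM (SD, n = 3). The log2 fold change was 0.30 (SE 0.08, 95% interval 0.11 to 0.49), with adjusted p = 0.0495 in edgeR's quasi-likelihood test, just inside the threshold of 0.05.

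The size of the Hdac8 change held better than its call. Leaving out each library in turn gave log2 fold changes of 0.27 to 0.35, all above 0, but none of the 6 fits called it, with adjusted p from 0.0678 to 0.19 in edgeR. With MS275 replicate 1 left out, which had the highest muscle sum, the log2 fold change was 0.31 (edgeR adjusted p = 0.0678). Of 10 other settings 5 called it. DESeq2 gave 0.31 with adjusted p = 0.0541, limma voom gave 0.31 with adjusted p = 0.0435, and the replicate number as a block gave 0.30 with edgeR adjusted p = 0.0631. With the summed muscle level as a covariate the estimate was 0.22 (SE 0.14, edgeR adjusted p = 0.547), in a fit that called 16 genes in all. The muscle sum was higher in every MS275 library than in any vehicle library, so this fit cannot tell muscle level and treatment apart. The part of muscle, endothelial, neutrophil, adipocyte, glial or neuronal RNA in the Hdac8 result was not tested beyond these fits. Hdac8 is overlapped for 208974 bp by the long non-coding RNA gene Gm32262, which has no row in the count files, so how reads of that RNA were assigned is not known.

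**Figure D1:**
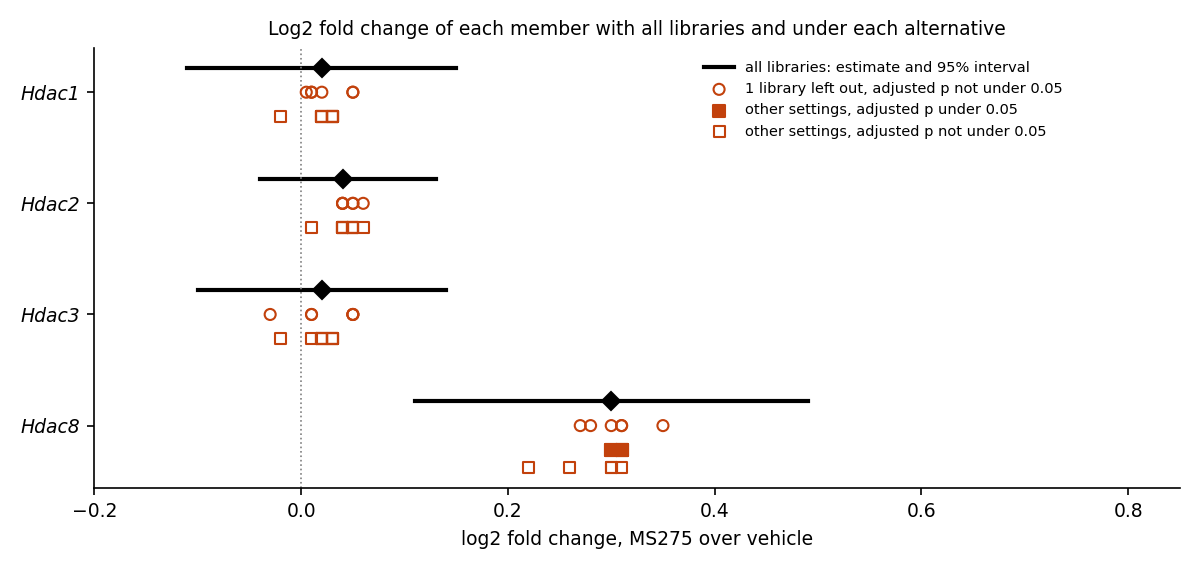
Log2 fold change of each class I deacetylase (x axis, MS275 over vehicle) with its 95% interval in the fit of all libraries (diamond and line), with 1 library left out (circles) and under 10 other settings (squares), filled where the adjusted p was under 0.05. Hdac8 lies above 0 throughout, from 0.22 to 0.35, and is filled only for 5 squares, while the other members lie between -0.03 and 0.06.

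Hdac2, known in the brain as a repressor of genes for synaptic plasticity, was at 112, 111 and 112 CPM under vehicle, while MS275 libraries had 113, 117 and 115 CPM. The groups did not overlap here either, which held for 2 of the 4 members in the upward direction, against 15.9% of all genes tested with all MS275 libraries above and 17.9% with all below. The means of 111 ± 0.622 and 115 ± 1.91 CPM (SD, n = 3) nevertheless differed by only 0.04 on the log2 scale (SE 0.04, edgeR adjusted p = 0.492). The 95% interval of the change ran from -2.82% to 9.18%.

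Hdac1, which often stands in for Hdac2, was at 26, 26 and 27.8 CPM under vehicle, while MS275 libraries had 26, 27.8 and 27.2 CPM, so the groups covered the same range. Its change was 0.02 on the log2 scale (SE 0.06, edgeR adjusted p = 0.835), with a 95% interval of -7.19% to 11.1%. An Hdac1 pseudogene, listed as Gm10093, took 12 to 23 reads per library, 1.09% to 1.82% of the Hdac1 count. The files set aside 12.4% to 14.1% of each library as reads with no unique place, and how many of those belonged to Hdac1 was not tested.

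Hdac3 was at 72.7, 72.6 and 77.5 CPM under vehicle, while MS275 libraries had 72.6, 72.7 and 80.9 CPM. Replicate 3 was the highest library in both groups, and the others coincided. The change was 0.02 on the log2 scale (SE 0.05, edgeR adjusted p = 0.825), with a 95% interval of -6.61% to 10.4%. Without MS275 replicate 3 it was -0.03, the only fit with a library left out in which the sign of a member turned. A change as large as that of Hdac8 thus lay outside the intervals of Hdac1, Hdac2 and Hdac3, though smaller ones did not.

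**Figure D2:**
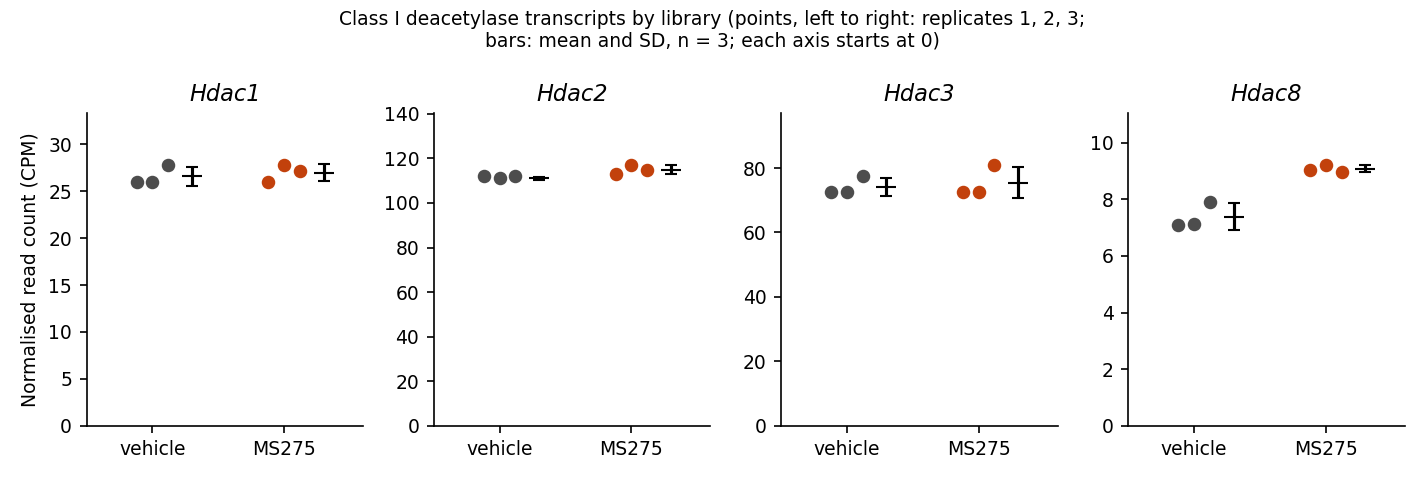
Normalised read count (CPM, y axis, from 0, with its own scale for each gene) of Hdac1, Hdac2, Hdac3 and Hdac8 in each vehicle (grey) and MS275 (orange) library, with the mean and SD of each group (n = 3). Hdac8 separates, with vehicle at 7.11 to 7.92 and MS275 at 8.98 to 9.21 CPM, while the groups overlap for Hdac1 (26 to 27.8 CPM in both) and for Hdac3 (72.6 to 77.5 in vehicle and 72.6 to 80.9 CPM with MS275).

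The balance between members was also read within each library, where the scaling of the library cancels. Of all class I reads, Hdac8 took 3.27%, 3.29% and 3.52% in vehicle and 4.10%, 4.07% and 3.87% with MS275. Hdac2 took 50.7 ± 0.905% in vehicle and 50.7 ± 1.09% with MS275, Hdac3 33.8 ± 0.552% and 33.3 ± 1.44%, and Hdac1 12.1 ± 0.213% and 11.9 ± 0.304% (SD, n = 3). These are shares of reads and not of molecules, since transcript length was not used, and no order of level between the genes is drawn from them.

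All 6 ratios between members were compared by an exact 2-sided permutation test, which with 3 against 3 libraries cannot go below p = 0.1. The log2 ratio of Hdac1 to Hdac8 was 1.85 ± 0.03 in vehicle and 1.57 ± 0.04 with MS275 (SD, n = 3), a difference of -0.28 (exact p = 0.1, 0.2 adjusted over the 6 ratios). The log2 ratios of Hdac2 and Hdac3 to Hdac8 differed by -0.26 and -0.28, each with groups that did not overlap and an exact p of 0.1, 0.2 adjusted. The ratio of Hdac1 to Hdac2 was -2.07 ± 0.05 in vehicle and -2.09 ± 0.03 with MS275, and its groups overlapped (exact p = 0.7, 0.84 adjusted). Hdac1 to Hdac3 and Hdac2 to Hdac3 differed by 9e-05 and 0.02 (exact p of 1 and 0.7, adjusted 1 and 0.84).

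The genes whose level most resembled each member over the 6 libraries were taken by Pearson correlation of log2 CPM among 10090 genes, a description that rests on 6 points. Hdac8 was matched by Rab7, a GTPase of late endosomes (r = 0.996), Slc44a2, a choline transporter-like gene (r = 0.995), and Tbrg1 (r = 0.995). Slc44a2 was higher with MS275 (log2 fold change 0.18, edgeR adjusted p = 0.0203), and Rab7 and Tbrg1 had 0.09 each and did not pass. Hdac2 was matched by Tmem183a (r = 0.993) and the protocadherin gene Pcdh1 (r = 0.992). Hdac3 was matched by Ict1 (r = 0.991), Bmyc (r = 0.977) and Stoml2 (r = 0.969), and Hdac1 by Enox2 (r = 0.975), Btbd9 (r = 0.965) and the peptide transporter gene Tap1 (r = 0.964). None of these matches of Hdac1, Hdac2 or Hdac3 passed the test.

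The members work through partner proteins, and 84 partner and related genes in 10 lists were read beside them. Of these 84, 5 were higher and 15 lower, 5.95% and 17.9%, against 5.10% and 5.89% of all genes tested. Their median log2 fold change was -0.05, against 0.002 for all genes tested. These counts depended on which libraries were in the fit. Without vehicle replicate 1, 2 or 3 they became 0 and 4, 0 and 3, and 2 and 9, without MS275 replicate 3 they became 3 and 7, and with the muscle covariate 0 and 0. Without MS275 replicate 1, whose muscle level was highest, they were 5 and 18.

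Among subunits that hold Hdac1 and Hdac2, the SIN3 list had 0 of 14 higher and 3 lower, with a median of -0.20, and 5 lower with library sizes alone. Without vehicle replicate 1 or 2 the list had 2 lower, without MS275 replicate 1 it had 4, and with the muscle covariate 0. Sin3a, the scaffold of the complex, was at 26.5, 26.5 and 24.9 CPM under vehicle, while MS275 libraries had 18.7, 18.3 and 18.7 CPM. The groups lay apart, with a log2 fold change of -0.48 (SE 0.06, edgeR adjusted p = 0.00282), and Sin3a passed with any 1 library left out (edgeR adjusted p of at most 0.0263). Ing2, a reader of methylated histone H3, fell from 7.13 ± 0.249 to 4.42 ± 0.267 CPM (log2 fold change -0.69, SE 0.10, edgeR adjusted p = 0.00498). Its relative Ing1, named after its values were seen, fell from 18.6 ± 0.576 to 14.1 ± 0.917 CPM (-0.40, edgeR adjusted p = 0.0107). Sin3a is overlapped by 2700012I20Rik, so some of its reads may belong there.

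The MIER and MiDAC list had 0 of 6 higher and 2 lower, Mier3 and Mier1, which recruit Hdac1 and Hdac2. Mier3 was at 12.6, 14.4 and 13.0 CPM under vehicle, while MS275 libraries had 7.86, 6.77 and 7.30 CPM, without overlap (log2 fold change -0.87, SE 0.09, edgeR adjusted p = 0.0019). It passed with any 1 library left out, with edgeR adjusted p of at most 0.0169, but not with the muscle covariate, nor did Sin3a (edgeR adjusted p of 0.0689 and 0.127). In the covariate fit the log2 fold changes were -0.89 (SE 0.15) for Mier3 and -0.44 (SE 0.1) for Sin3a, near those without it but with larger SE. Mier1 fell from 27.9 ± 0.684 to 21.8 ± 0.607 CPM (-0.35, edgeR adjusted p = 0.00791), and Dnttip1, the MiDAC scaffold, was at 22.6 ± 1.14 and 23.0 ± 0.594 CPM (0.02, edgeR adjusted p = 0.853). Without vehicle replicate 1 or 2, 1 of the 6 was lower.

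The CoREST list was split, with 2 of 10 higher and 2 lower. Hmg20b (0.35, edgeR adjusted p = 0.013) and the neural CoREST scaffold Rcor2 (0.34, edgeR adjusted p = 0.0269) rose, while Rcor3 (-0.30, edgeR adjusted p = 0.0186) and Zmym2 (-0.21, edgeR adjusted p = 0.013) fell. Rcor2 went from 13.0 ± 1.03 to 16.5 ± 0.765 CPM and Rcor3 from 25.4 ± 0.208 to 20.6 ± 1.19 CPM (SD, n = 3). Rcor1 (-0.09) and the demethylase Kdm1a (0.0023), which form the core with Hdac1 or Hdac2, did not pass (edgeR adjusted p of 0.426 and 0.977). Without vehicle replicate 1 or 2, 0 of the 10 passed. Without vehicle replicate 3 or MS275 replicate 3, 2 were higher and 1 lower. Rcor3 overlaps Gm10516, so some of its reads may belong there, and likewise Rcor1 and Kdm1a overlap other genes.

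NuRD, the remodelling complex of Hdac1 and Hdac2, had 1 of 13 subunits higher and 1 lower, Mta1 (0.20, edgeR adjusted p = 0.0354) and Gatad2b (-0.46, edgeR adjusted p = 0.0295). Chd4, its ATPase, was at 203 ± 3.69 and 205 ± 6.99 CPM (0.01, edgeR adjusted p = 0.878), and Mta2 at 36.5 ± 1.09 and 31.8 ± 2.0 CPM (-0.20, edgeR adjusted p = 0.0597). Without vehicle replicate 1, 2 or 3 or MS275 replicate 3, 0 of the 13 passed. With library sizes alone 0 were higher and 3 lower, and Mta1 was at 0.16 (edgeR adjusted p = 0.0559), while without MS275 replicate 1, or with no filter beyond 1 count, 1 was higher and 2 lower.

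No listed partner of Hdac3 passed the test. Of 5 NCoR complex subunits 0 passed in edgeR, DESeq2 or limma voom, though 2 were higher at an unadjusted p under 0.05, with Ncor1 at 126 ± 1.59 and 117 ± 4.76 CPM (-0.10, adjusted p = 0.177). Of 8 subunits of the TRiC chaperonin, which folds Hdac3, 0 passed in edgeR, DESeq2 or limma voom, and 0 had an unadjusted p under 0.05, with log2 fold changes from -0.03 to 0.07 and Tcp1 at -0.02. Of 3 casein kinase 2 subunits, which phosphorylate Hdac1 and Hdac2, 0 passed in the same 3 tools and 0 had an unadjusted p under 0.05, and Csnk2a1 had 0.06 (adjusted p = 0.371).

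Cohesin, whose subunit Smc3 is the known Hdac8 substrate, had 0 of 12 genes higher and 5 lower, with a median of -0.14. Smc3 was at 50.3, 51.5 and 49.8 CPM under vehicle, while MS275 libraries had 46.5, 42.5 and 40.5 CPM. Every MS275 library was below every vehicle library, with a log2 fold change of -0.23 (SE 0.06, edgeR adjusted p = 0.033). Nipbl, the cohesin loader, fell from 38.1 ± 1.67 to 31.1 ± 1.98 CPM (-0.29, edgeR adjusted p = 0.0199) and Pds5b from 53.9 ± 3.35 to 45.6 ± 1.24 CPM (-0.24, edgeR adjusted p = 0.0248). The other two, named after their values were seen, were Stag1 (-0.30, edgeR adjusted p = 0.033) and Esco1 (-0.28, edgeR adjusted p = 0.0282), the latter an acetyltransferase that acts on Smc3 against Hdac8. The 5 calls became 0 without vehicle replicate 1, vehicle replicate 2 or MS275 replicate 3, 1 without vehicle replicate 3, and 5 without MS275 replicate 1. Nipbl and Pds5b overlap other annotated genes, so some of their reads may belong there.

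Inositol phosphates sit between class I enzymes and their co-repressors and support catalysis, and of 6 genes for kinases that act on them 2 were higher and 2 lower. Itpk1 (0.21, edgeR adjusted p = 0.0186) and Itpkb (0.20, edgeR adjusted p = 0.0293) rose. Ipmk went from 43.3 ± 0.776 to 35 ± 1.42 CPM (-0.31, edgeR adjusted p = 0.00802), and Itpkc from 12.2 ± 1.04 to 8.66 ± 0.966 CPM (-0.50, edgeR adjusted p = 0.0178). Itpka, at only 0.257 ± 0.0663 CPM in vehicle and 0.388 ± 0.0836 CPM with MS275, had the highest value of the list, 0.62 (SE 0.34). It did not pass (edgeR adjusted p = 0.271), and it was named after its value was seen. Without vehicle replicate 1, 2 or 3 the counts were 0 and 1, 0 and 0, and 0 and 2, and without MS275 replicate 3 they were 1 and 1. Itpk1, Itpkb and Itpkc overlap other annotated genes, so some of their reads may belong there. Of the 7 class II and IV deacetylases, on which MS275 acts little, 0 passed in edgeR and limma voom, and 2 were higher at an unadjusted p under 0.05. DESeq2, edgeR with the replicate block and edgeR without MS275 replicate 2 each called 1 higher. Their log2 fold changes in edgeR ran from -0.10 to 0.25, the highest for Hdac7 (adjusted p = 0.0916).

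**Figure D3:**
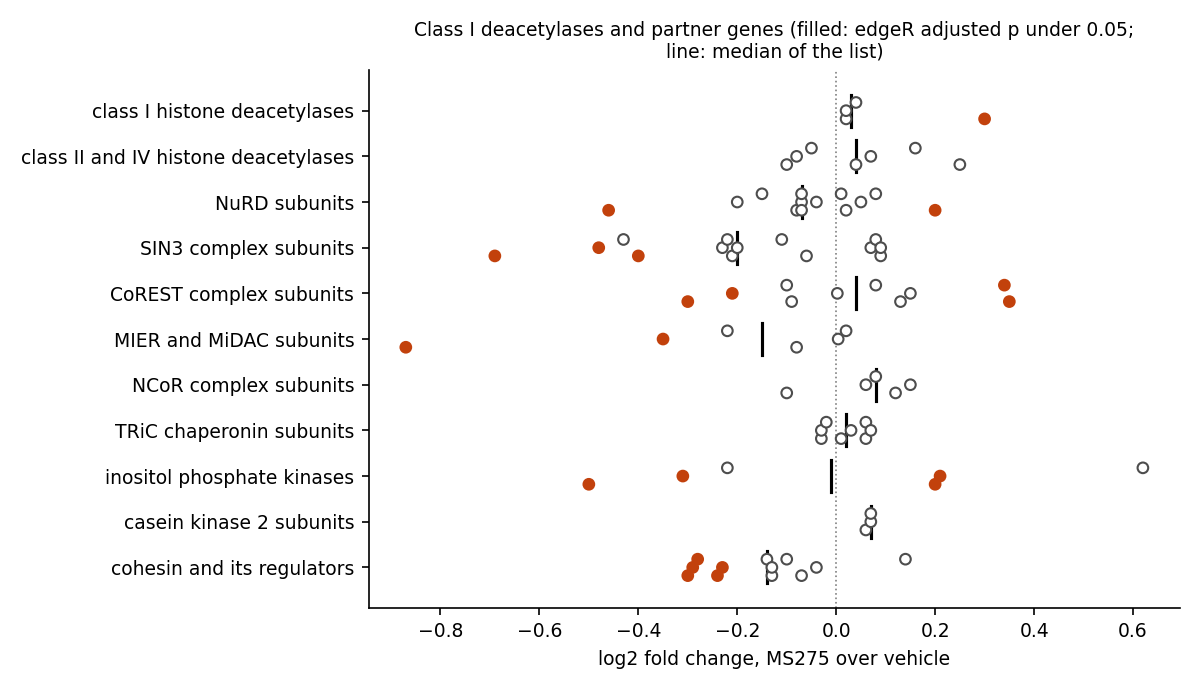
Log2 fold change (x axis, MS275 over vehicle) of the 4 class I deacetylases and of 84 partner and related genes by list, each point 1 gene, filled where edgeR's adjusted p was under 0.05, with the median of the list as a line. Filled points lie on the lower side only for SIN3 (3), MIER and MiDAC (2) and cohesin (5), and on both sides for NuRD, CoREST and the inositol phosphate kinases.

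Open chromatin was compared by position only, since each treatment has 1 combined list and no replicate to test. Overlapping entries were merged into 177906 regions in the vehicle list and 161788 in the MS275 list. Of these, 13 and 11 lay within 2000 bp of a class I gene, at Hdac1 (6 and 5), Hdac2 (2 and 2) and Hdac3 (5 and 4), and none at Hdac8. By number, 96.6% and 96.3% of tested coding genes had a region in this window in the vehicle and MS275 lists. Of the 13 vehicle regions, 6 overlapped a region of the MS275 list, close to the share over all vehicle regions (47.5%, and 52.8% of MS275 regions overlapped the vehicle list), and nothing particular to these genes is read from it.

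Each of Hdac1, Hdac2 and Hdac3 had a strong region over 1 end of the gene in both lists. At Hdac2, on chromosome 10 from 36974297 to 37001889 in mm10, the vehicle region ran from 36973855 to 36975470 and the MS275 region from 36973797 to 36975226. They had a -log10 q, as the authors give it, of 178 and 177 and stood at percentiles 99.5 and 99.6 of their own lists. Their summits lay at -277 and -269 bp from the RefSeq start site at 36974544. The other 2 regions at Hdac2 were weak (-log10 q of 1.33 and 0.611) and each was in 1 list only.

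RefSeq gave a start site and promoter for Hdac2 and Hdac8 (GRCm38.p6, the assembly of mm10), and the 250 bases before each start are printed because the first lies inside a strong open region and the second in none. Other RefSeq models of both genes begin further upstream. Capitals mark matches to the motifs searched.
Hdac2, chr10:36974294-36974543, plus strand: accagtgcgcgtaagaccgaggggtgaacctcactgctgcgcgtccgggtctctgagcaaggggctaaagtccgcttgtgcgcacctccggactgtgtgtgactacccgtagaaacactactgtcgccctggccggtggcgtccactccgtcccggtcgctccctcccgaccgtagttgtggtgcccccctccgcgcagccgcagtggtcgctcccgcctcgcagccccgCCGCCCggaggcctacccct
Hdac8, chrX:102505159-102505408, minus strand: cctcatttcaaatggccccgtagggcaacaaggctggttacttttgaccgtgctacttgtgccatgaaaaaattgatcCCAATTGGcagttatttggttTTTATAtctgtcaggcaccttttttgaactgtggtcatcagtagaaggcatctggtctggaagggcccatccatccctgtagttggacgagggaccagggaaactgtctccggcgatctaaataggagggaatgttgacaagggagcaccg

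The stretches differ in composition. Over the 300 bases from 250 before to 50 after the start, Hdac2 had 69.7% G and C and 36 CpG dinucleotides, more CpG than 93.8% of 32851 RefSeq promoters, and Hdac8 had 49.7% and 6, more than 43.6%. Hdac2 held 1 GC box (GGGCGG, on the minus strand), a motif found in 35.7% of all these promoters. Hdac8 held 2 overlapping matches to CCAAT, 1 on each strand (37.4% of promoters), and 1 to TATAAA on the minus strand (13.6%). Neither held TGACGTCA (CRE, 1.79%), GCGCATGC (core of the NRF1 motif, 2.71%), CACGTG (E-box, 7.15%), CCGGAAGT (ETS, 3.89%) or TGANTCA (AP-1, 7.81%), all searched on both strands. A match is only a run of letters, and no match says nothing of the factor.

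Hdac1, on chromosome 4 from 129516104 to 129542646, had its strong region over its higher-coordinate end. In the vehicle list it ran from 129541666 to 129543324 (-log10 q of 101). In the MS275 list the same stretch was covered by 2 regions, 129541652 to 129542223 (1.93) and 129542351 to 129543183 (96.9). The summits of the strong regions lay 129 and 119 bp beyond the end of the gene. Of the regions inside Hdac1, 4 of the vehicle list and 2 of the MS275 list had no counterpart in the other list, with -log10 q from 0.753 to 3.49; by the shares above, such regions are common in both lists. A further region in both lists lay below its lower-coordinate end, 1335 and 1325 bp away, beside the neighbour Marcksl1.

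Hdac3, on chromosome 18 from 37936971 to 37955015, is separated by 38 bp from Rell2, and a single open region spanned both gene ends. It was 2060 bp wide in the vehicle list and 2028 bp in the MS275 list. The -log10 q was 46.5 and 35.1, at percentiles 96.5 and 96.2 of their own lists. The summits lay 2 bp inside and 7 bp beyond the end of Hdac3. Rell2 RNA was at 167 and 177 CPM in vehicle and with MS275 (log2 fold change 0.08, edgeR adjusted p = 0.452). A region inside Hdac3 lay 8260 bp from its lower-coordinate end in the vehicle list (-log10 q of 5.60, percentile 78.7). It had a counterpart in the MS275 list (1.83, percentile 41). The strongest region counted at Hdac3 lay outside the gene, beside Diaph1. It was 1156 and 1145 bp below the lower-coordinate end in the vehicle and MS275 lists (-log10 q of 116 and 60.3, percentiles 98.9 and 97.7). With either gene end taken as a start, since the tables used give no strand for Hdac1 and Hdac3, both had a region within 1000 bp in both lists, as did 90.2% of tested coding genes in the vehicle list and 88.9% in the MS275 list.

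Hdac8, on chromosome X from 102284638 to 102505381, is the longest of the 4 genes at 220744 bp and had no region in either list, at its start or along its span. Its nearest regions lay 32322 bp below in the vehicle list, beside Cited1, and 138700 bp above, beside Phka1, and at 32314 and 138580 bp in the MS275 list. Of tested coding genes with a RefSeq promoter, 91.6% in the vehicle list and 90.8% in the MS275 list had a region within 1000 bp of a start. The lists are sparse on this chromosome. It held 569 vehicle and 562 MS275 regions, 0.32% and 0.347% of the lists. Chromosome 19, the lowest of the autosomes counted, which leave out chromosome 18, held 4876 and 3621. Of 404 coding genes with a RefSeq promoter on chromosome X, 71.0% and 74.5% had a start region. Of the same genes 19.8% had no region in their window in either list, against 2.0% of 10713 on the autosomes. No gene of chromosome 18, which carries Hdac3, was among the tested coding genes with a RefSeq promoter. Genes on the X with a CPM within 2-fold of that of Hdac8 had a start region in 61.5% and 67.9% of 78 cases. Among 26 genes on the X that span as much as Hdac8 or more, itself included, 7 had no region in either list. The part of this sparse coverage in the result for Hdac8 was not tested, and an unlisted region is not shown to be closed.

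**Figure D4:**
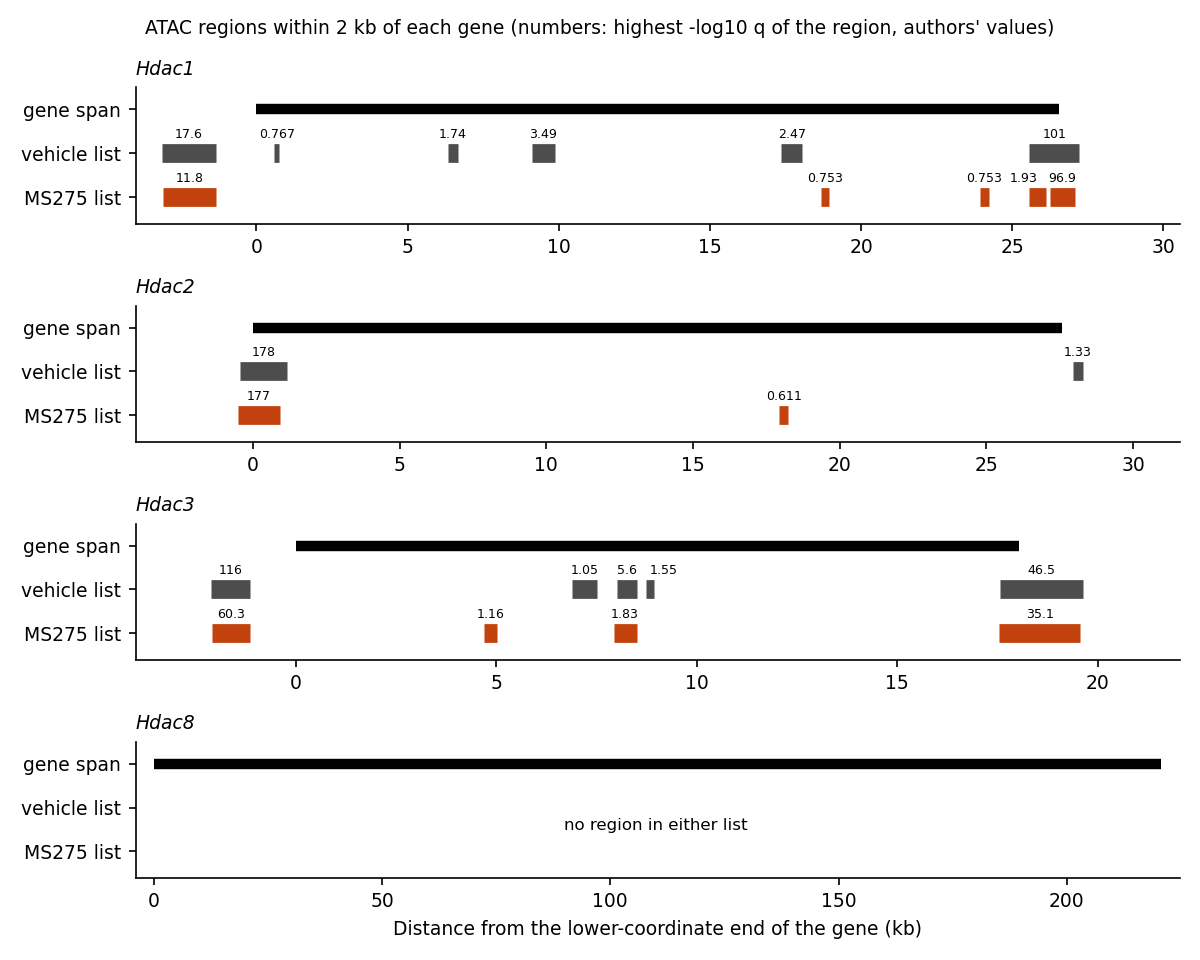
ATAC regions within 2 kb of Hdac1, Hdac2, Hdac3 and Hdac8 in the vehicle (grey) and MS275 (orange) lists, by distance from the lower-coordinate end of each gene (x axis, kb), with the gene span in black and the authors' highest -log10 q above each region. Hdac1, Hdac2 and Hdac3 show a strong region over 1 end in both lists (35.1 to 178), and Hdac8 shows none over 220744 bp.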

How the data were processed

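RNA was measured in 3 vehicle and 3 MS275 libraries and open chromatin in 3 samples per treatment, grouped by their titles. The deposited RNA files hold raw read counts per gene symbol. The submitters' processing notes name build mm10, FastQC 0.10.1, STAR 2.7.0, R 3.5.0, limma 3.38.3 and edgeR 3.24.3, without their roles. For the read counter, its annotation and its strand setting, nothing is given in the sources used here. The 5 rows naming no gene (18.9% to 20.6% of reads) were left out. Among them, the row labelled ambiguous held 0.592% to 0.63% of each library. How many of those reads fell on the overlapping genes named above was not tested. The deposited ATAC lists hold, per the file layout, a score, a fold enrichment ratio, a -log10 p-value, a -log10 q-value and a summit offset per entry. The caller is likewise not stated. Values of both lists are given side by side, but no difference between the lists was tested or read from them.

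The test was that of edgeR 4.0.16 under R 4.3.3 (TMM, filterByExpr, treatment only, quasi-likelihood test, 2-sided, Benjamini-Hochberg over 16819 genes, threshold 0.05). SE is the log2 fold change over the square root of F. CPM use normalised library sizes, and correlations log2 CPM with a prior count of 2. The fit was checked on simulated data. The biological coefficient of variation was 8.62%. Libraries of 1 group differed by more than sampling noise (chi-square per degree of freedom of 7.23 to 53.4). The design text calls the triplicates biological. Deviations of same-numbered libraries correlated at 0.019, 0.111 and -0.061, so the numbers were not taken as pairs, though these values cannot exclude a shared batch. The members and lists were chosen with earlier results of these data known. Named genes are the members, up to 2 genes per list and direction of smallest p among those called, and 12 partners named whatever their values; 1 further partner and 1 correlated gene that these rules name are not reported here. The 3 most correlated genes per member had a mean log2 CPM of at least 3, without provisional symbols. Wapl and Adgre1 were read under the older symbols Wapal and Emr1. Besides the overlaps stated above, Chd4, Mta2, Dnttip1, Ncor1 and Tcp1 also overlap other annotated genes, so the same caution holds for them.

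Peaks were merged and checked against bedtools 2.31.1 (overlap of at least 1 bp). Coordinates and promoters came from RefSeq tables of GRCm38.p6, which matched 13978 tested coding genes, 11122 of them with a promoter, and 2 of the 4 members. Alternatives covered normalisation, filters, DESeq2 1.42.0, limma 3.58.1 voom, the replicate block, a muscle covariate, each library left out, and, for the ATAC lists, a minimum -log10 q of 5, equal numbers of entries (of highest -log10 p), overlap and windows.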

Additional observations from a re-analysis of the deposited data

How the results depend on the processing

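The direction of Hdac8 was the same in all 16 alternative fits, and its call was lost in 11. Besides the values above, library sizes alone gave 0.26 (edgeR adjusted p = 0.0679) and no filter beyond 1 count 0.30 (edgeR adjusted p = 0.0687). With library sizes alone Hdac1 and Hdac3 turned to -0.02 each, Chd4 and Kdm1a to -0.03 and Dnttip1 to -0.02, and the calls over all genes were 680 higher and 1724 lower against 858 and 991, a share of higher calls of 28.3% against 46.4%. Kdm1a was -0.00075 with limma voom. The muscle covariate gave 12 genes higher and 4 lower, 0 and 0 partners, Rcor1 at 0.08 and Dnttip1 at -0.07, and Hdac8 at 0.22. The replicate block (edgeR) gave Hdac8 at 0.30, not called, and 2088 genes against 1849. DESeq2 gave 0.31 for Hdac8. With 1 library left out, genes called ranged from 127 to 1388 higher and 134 to 1375 lower, partners from 0 to 7 and 3 to 18, Hdac8 from 0.27 to 0.35 and Hdac3 from -0.03 to 0.05. Over the same fits Chd4 ranged from -0.01 to 0.03, Kdm1a from -0.02 to 0.03, and Dnttip1 from -0.0021 to 0.06. The difference in the Hdac1 to Hdac2 ratio ranged from -0.04 to 0.01, Hdac1 to Hdac3 from -0.05 to 0.05 and Hdac2 to Hdac3 from -0.02 to 0.07, while the 3 ratios to Hdac8 stayed between -0.34 and -0.23. With a -log10 q of at least 5 the regions at members were 6 in the vehicle and 5 in the MS275 list, none at Hdac8. Genes called in all were 261 without vehicle replicate 2 and 2763 without MS275 replicate 2, against 1849 with all libraries. The cause of lost calls was not tested. Depth limits Hdac8 most, at 310 to 506 reads per library, and the depth of the ATAC samples is unknown here.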

Other observations

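Marcksl1, whose product binds membranes and actin, lies 122 bp from Hdac1 and was higher with MS275 (14.8 to 18.2 CPM, log2 fold change 0.29, SE 0.08, edgeR adjusted p = 0.0444), while Hdac1 had 0.02. It was singled out after its values were seen.

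Among RefSeq promoters of tested coding genes, the share with an open region within 1000 bp of the start was set against the number of CpG dinucleotides, as a description with no test. With 0 to 5 CpG in 300 bases, 50.6% of 2236 promoters had one in the vehicle list and 47.2% in the MS275 list. With 6 to 15 CpG, the range that holds Hdac8, the shares were 86.6% and 84.9% of 3519. With 31 or more, the range that holds Hdac2, they were 98.8% and 98.4% of 2726.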
